A study of Oryza sativa with 16 samples.

Results

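The genes described here are 208 rice genes whose transcripts were higher in the leaves of every histone H4 over-expression (OE) line than in wild type (WT) leaves. They were chosen from 29768 annotated genes by their FPKM in the 8 leaf libraries. FPKM are the fragments of a transcript per kilobase of its length, scaled to the total of mapped fragments in the library. A gene was a member when its lowest value over the 6 OE leaf libraries was at least 3 FPKM and at least 2 times the higher of the 2 WT leaf values. Among the 7677 genes that reached 3 FPKM in all 6 OE leaf libraries, which are used below for comparison, the members made up 2.71%. The difference between OE and WT leaves is therefore what chose the members, and it is described below without a test. The levels in seedlings and the positions of the genes were not used in the choice. The OE lines were not compared with each other in it, but a gene that was low in any OE leaf library was left out.

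Histone H4 is one of the core proteins of the nucleosome, around which nuclear DNA is wrapped, and its modifiable tail is read by factors that open or close chromatin. Sequence variants of H2A and H3 are common in plants and replace their canonical forms at particular places in the genome, whereas H4 is among the least variable of eukaryotic proteins. H4.V is a variant of H4 that the study describes in Oryza, and it is examined there together with the response of rice to salt.

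The plants were Pusa Basmati 1, an indica rice. Mature leaves were taken from OE-H4.V (labelled OE_H4V, over-expressing the variant), OE-H4 (OE_H4C, canonical H4), OE-H4.Vs (OE_CHMR, a chimera that joins the N terminus of H4.V to the C terminus of H4) and WT. Each OE construct was driven by the constitutive maize Ubiquitin promoter and brought into calli with Agrobacterium, followed by hygromycin selection and regeneration. All 3 OE lines share this history and the WT plants do not, so the over-expressed histone and the transformation cannot be told apart in the comparison of OE with WT leaves. The seedlings were 20 days old by the labels, whereas the study's methods and supplement give a younger age. By that supplement the leaves came from older plants, so leaves and seedlings differed in age as well as in tissue. The seedling groups were h4.v KO with 120 mM NaCl in the medium, WT with NaCl, h4.v KO without it and WT without it. The h4.v KO seedlings carry a Cas9-made loss of H4.V. The Cas9 construct was also brought into calli with Agrobacterium, with selection and regeneration, although the study describes the h4.v KO lines as free of T-DNA. The loss of H4.V and this history therefore cannot be told apart where h4.v KO is compared with WT. Each of the 8 groups had 2 libraries of poly(A) RNA, and nothing in the labels says that these came from separate plants, so p-values measure the spread between libraries.

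The tables hold no read counts. Depth, estimated from the widths of the authors' confidence intervals relative to WT seedling replicate 1, ran from 0.545 to 0.857 over the leaf libraries and up to 1.203 over all 16. Transcripts spanning less than 300 bp of the genome took between 0.958% and 20.6% of the FPKM in the OE leaf libraries. In the WT leaf libraries they took 19.9% and 0.80%, so the groups overlap in this measure. At the position of H4.V, Os05g0462900 (chromosome 5, 22743760 to 22744188) was at 3369 and 3162 FPKM in OE-H4.V leaves and was listed at 0 in the 14 other libraries. This matches the label of OE-H4.V. The OE-H4.Vs leaves were also at 0 there, although their construct carries the N-terminal part of H4.V, so this position gives no support for that label, and whether reads of the chimera would align to it was not tested. OE-H4.Vs below means the libraries with that label. The h4.v KO label could not be checked, as H4.V was at 0 also in WT. The files do not pair the identifiers with gene names, so the members are given by identifier and position on IRGSP1.0, and neither their functions nor markers of leaf tissue could be read.

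In the leaves of the OE lines the members were genes of middling level. The median over the 208 members was between 9.98 and 12.5 FPKM in the 6 OE leaf libraries, against 0.136 and 0.146 FPKM in the WT leaf libraries. The 7677 comparison genes had medians between 13.1 and 15.3 FPKM in the OE leaf libraries and 12.9 and 12.98 FPKM in the WT leaf libraries. The median over the OE leaf libraries was at least 100 FPKM in 6 members, between 10 and 100 FPKM in 107 and under 10 FPKM in 95. In WT leaves, 83 members (39.9%) were listed at 0 in both libraries and 23 in 1 of them, while the higher WT value was at least 1 FPKM in 87 members and at least 5 FPKM in 28. A value of 0 in these tables can be a transcript that was not assembled in that library. No ratio to WT leaves is therefore given for members at 0 in both WT leaf libraries. Fold changes in seedlings were fitted on log2(FPKM + 1), and those with a library at 0 carry the same reservation. Over the 125 members above 0 in a WT leaf library, the lowest OE value was 3.38 times the higher WT value in the median, with a range of 2.01 to 231 times.

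**Figure D1:**
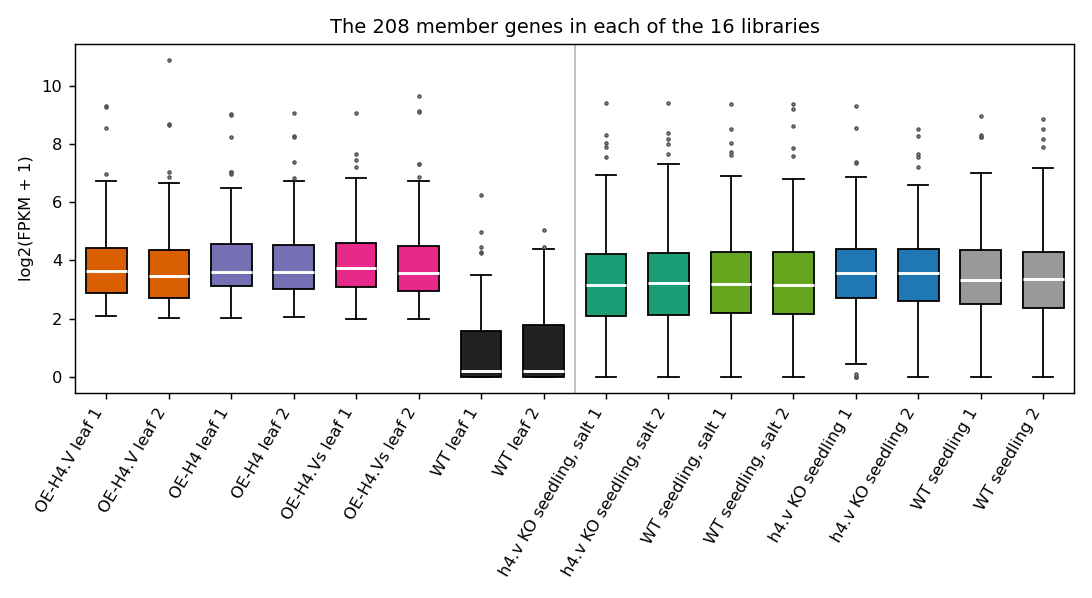
Box plots of log2(FPKM + 1) of the 208 member genes in each library, leaves left of the grey line and seedlings right of it. Boxes span the quartiles with the median in white, whiskers reach 1.5 times that span, and dots are genes beyond. The medians of the 6 OE leaf libraries lie between 9.98 and 12.5 FPKM, those of the 2 WT leaf libraries at 0.136 and 0.146 FPKM, and those of the 8 seedling libraries between 7.92 and 10.95 FPKM.

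The member with the highest level was Os12g0552500 (chromosome 12, 22429432 to 22431789). Its transcripts reached 615 and 1899.6 FPKM in OE-H4.V leaves, 519 and 540.1 FPKM in OE-H4, and 535 and 556 FPKM in OE-H4.Vs leaves, against 74.3 and 31.9 FPKM in WT leaves. The second OE-H4.V library stood far above the 5 other OE libraries, which lay close together. In seedlings the same gene was at 367 to 685 FPKM in the 3 groups with salt or h4.v KO, and at 501 and 465 FPKM in WT without salt, a level near that of the OE leaves. Os07g0546700 (chromosome 7, 21672642 to 21674132) behaved alike at a lower level, with 103 and 100.3 FPKM in OE-H4.V leaves, 123 and 114 FPKM in OE-H4 and 148 and 105 FPKM in OE-H4.Vs, against 0 and 0.453 FPKM in WT leaves. Its WT seedling values were 126 and 145 FPKM. Os09g0553100 (chromosome 9, 21912086 to 21912668) had 375 and 413 FPKM in OE-H4.V leaves, 300.2 and 299 FPKM in OE-H4 and 201 and 547 FPKM in OE-H4.Vs, against 3.38 and 3.92 FPKM in WT leaves. The WT seedling libraries disagreed for this gene, at 75.9 and 0.382 FPKM.

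Other strongly expressed members differed more between the OE lines or between replicates. Os06g0156900 (chromosome 6, 2902268 to 2907302) had 628 and 397 FPKM in OE-H4.V leaves, 130.3 and 165 FPKM in OE-H4 and 175 and 796 FPKM in OE-H4.Vs, against 8.19 and 17.4 FPKM in WT leaves. In this gene the WT leaves were near the seedlings, of which all 8 libraries lay between 9.24 and 18.7 FPKM. Os04g0650700 (chromosome 4, 33161539 to 33164512) was at 93.1 and 64.7 FPKM in OE-H4.V leaves, 504 and 310.2 FPKM in OE-H4 and 93.0 and 158 FPKM in OE-H4.Vs, against 30.7 and 15.2 FPKM in WT leaves. Os02g0509500 (chromosome 2, 18211500 to 18211991) was nearly level over the OE lines, at 52.0 to 71.4 FPKM, against 18.3 and 4.41 FPKM in WT leaves. Of the 12 highest members, 3 more carry a reservation on the assignment of transcripts, and the last 3 are described with the members at 0 in WT. Os12g0460800 (chromosome 12, 16196141 to 16199480) and Os02g0543000 (chromosome 2, 20165664 to 20166649) lay in a leaf library under a transcript that covers a second gene. At 55.4 to 93.7 FPKM and 51.1 to 85.2 FPKM in the OE leaf libraries, both were above their higher WT leaf values of 21.2 and 19.9 FPKM. Os02g0557700 (chromosome 2, 21122299 to 21125132) shared a transcript in seedlings only, and had 79.7 to 129.6 FPKM in the OE leaf libraries, against 20.9 and 19.5 FPKM in WT leaves.

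Of the 83 members listed at 0 in both WT leaf libraries, the 8 with the highest lowest OE value ranged from 26.6 FPKM upward. Os09g0340400 (chromosome 9, 10448414 to 10452767) was at 125 and 84.3 FPKM in OE-H4.V leaves, 89.0 and 88.1 FPKM in OE-H4 and 90.0 and 116 FPKM in OE-H4.Vs leaves. Os12g0115300 (chromosome 12, 746162 to 747120) was at 105 and 129 FPKM in OE-H4.V leaves, 68.9 and 82.4 FPKM in OE-H4 and 113 and 157 FPKM in OE-H4.Vs leaves. Both were also transcribed in WT seedlings, at 63.7 and 59.1 FPKM for the first and 0 and 49.2 FPKM for the second, and both shared a transcript with another gene in a seedling library. Os02g0477300 (chromosome 2, 16347717 to 16350263) varied least, with 40.0 to 48.7 FPKM over the OE leaf libraries, and WT seedlings had 25.9 and 24.3 FPKM. Os01g0686100 (chromosome 1, 28295136 to 28299994) lay between 27.6 and 44.3 FPKM in the OE leaf libraries, beside 14.7 and 14.3 FPKM in WT seedlings. Os09g0362800 (chromosome 9, 11862271 to 11866452) had 31.1 to 39.6 FPKM in the OE leaf libraries and was listed at 0 in the 2 WT leaf and all 8 seedling libraries.

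**Figure D2:**
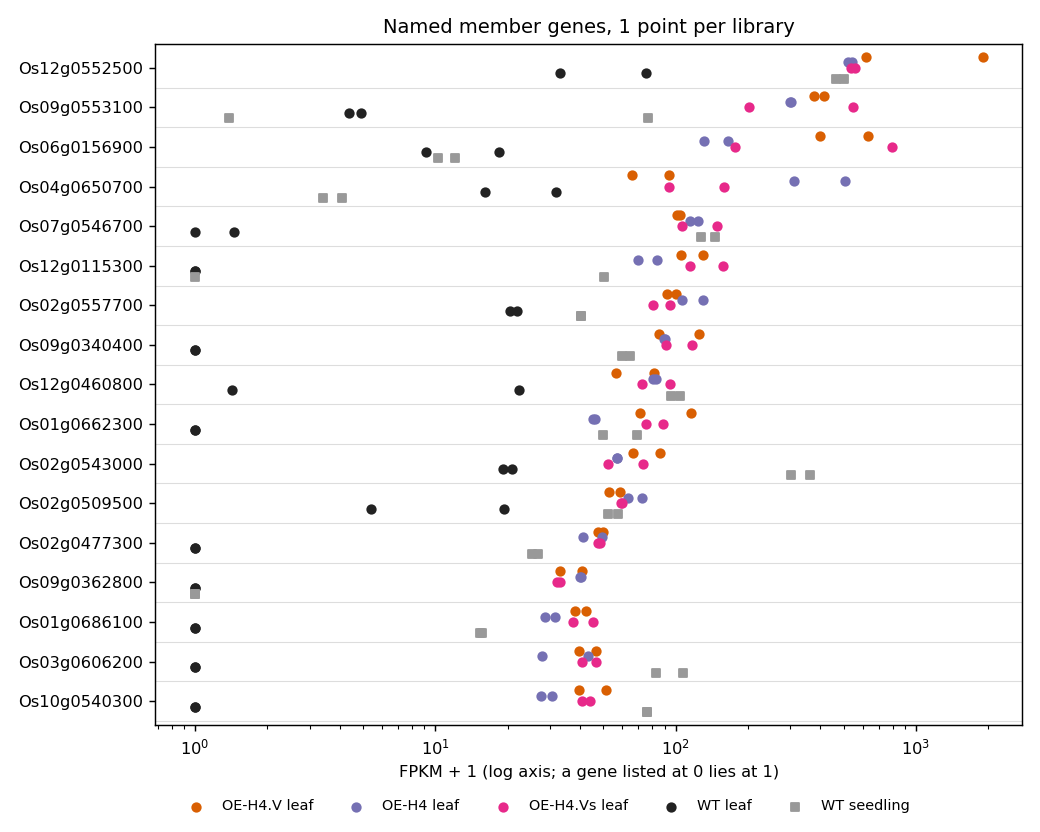
FPKM + 1 on a log axis for 17 member genes, 1 row per gene and 1 point per library, for the leaves of the 3 OE lines (coloured circles), WT leaves (black circles) and WT seedlings (grey squares). In every row the WT leaf points lie left of all 6 OE leaf points, as the choice of the genes requires, while the WT seedling points lie among or near the OE leaf points for genes such as Os07g0546700 and left of them for Os06g0156900.

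The 3 other genes of these 8 depended on how transcripts were assigned to genes. A transcript counted for a gene only if at least 50% of it lay in the gene. In WT leaves, 22 of the 208 members were also overlapped by a transcript that did not meet this condition. With every overlapping transcript counted by the share of the gene it covers, Os01g0662300 (chromosome 1, 27041773 to 27042644) had a higher WT leaf value of 133 FPKM, Os03g0606200 (chromosome 3, 22740588 to 22741268) of 108 FPKM and Os10g0540300 (chromosome 10, 21066730 to 21074892) of 12.8 FPKM, in place of 0. The first 2 then no longer met the rule, since their lowest OE values were 44.4 and 26.7 FPKM, and Os10g0540300 stayed a member with 26.6 FPKM. Over all members, 196 still met the rule on this basis and 12 did not, and 69 of the 83 members at 0 in WT leaves remained at 0. In all, 39 members lay inside another gene or under a leaf transcript that covers a second gene. Cufflinks' confidence intervals, which cover counting error only, did not meet between the OE and WT leaf libraries in 121 of the 125 members above 0 in WT. The rule asked for a gap between these same libraries, so this count largely follows from the choice of the members. The fewest fragments behind a member in an OE leaf library, as implied by the confidence intervals, were 134 in the median and under 10 in 5 members. The lowest implied value, 0.000884 in Os04g0202200, cannot be a number of fragments, so the measure is rough. Os04g0290000, with 7.88, belongs to a run of adjacent members described below.

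In the fit across the 12159 genes that averaged 1 FPKM or more in leaves, a gene was called at an adjusted p under 0.05 (limma on log2(FPKM + 1), Benjamini-Hochberg) and an absolute log2 fold change over 1.5. All 208 members passed this filter, many of them only through the OE libraries. Against WT, 154 members were called higher in OE-H4.V, where 1.92% of all genes were called higher, 184 in OE-H4 (3.71% of all genes) and 167 in OE-H4.Vs (2.21%), and none was called lower. With every overlapping transcript counted, 2 members were called lower in OE-H4 (Os01g0662300, log2 fold change -1.55, and Os03g0606200, -1.64) and 1 in OE-H4.Vs (Os10g0421800, -1.504, named after its values were seen). These counts follow from the choice of the members and the 3 comparisons share the WT libraries, so nothing is read from them. As these are bulk samples, fewer cells that express a gene and less RNA per cell cannot be told apart.

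Between the OE lines no member passed the test. No member was called between OE-H4.V and OE-H4, where 0.551% of all genes were, none between OE-H4.Vs and OE-H4 (0.740% of all genes) and none between OE-H4.V and OE-H4.Vs (0.304%). An unadjusted p under 0.05 was reached by 37 members (17.8%) between OE-H4.V and OE-H4, by 30 (14.4%) between OE-H4.Vs and OE-H4 and by 13 (6.25%) between OE-H4.V and OE-H4.Vs, beside 18.99%, 17.3% and 6.23% of all genes tested. The rule sets only a lower limit for the OE libraries, and it applies to each line alike. A gene that was low in any OE line could therefore not be a member, which limits the differences between lines. The genes tested as a whole did not have to meet this limit, so nothing is read from the absence of called members. Median log2 fold changes of the members were -0.10, -0.03 and -0.05 in these 3 comparisons, beside -0.12, -0.06 and -0.06 over all genes, and with median-of-ratios scaling, which sets each library to the same typical ratio over genes, they turned to 0.04, 0.06 and 0.01, beside 0.003, 0.01 and -0.004. Leaving out 1 library gave 1 member called between OE-H4.V and OE-H4 (without OE-H4.V replicate 1), 1 between OE-H4.Vs and OE-H4 (without either OE-H4.Vs library) and 3 between OE-H4.V and OE-H4.Vs (without OE-H4.Vs replicate 2). The highest of the 6 OE values was within 2 times the lowest in 142 members (68.3%) and in 75.8% of the comparison genes, and it was over 4 times the lowest in 13 members.

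Several members differed between lines by a large log2 fold change without passing adjustment. Os04g0650700, whose values are given above, was higher in both OE-H4 libraries than in the 4 other OE libraries, with a change of -2.33 on the log2 scale between OE-H4.V and OE-H4 (SE 0.45, adjusted p = 0.112, limma with Benjamini-Hochberg adjustment). Os04g0680400 (chromosome 4, 34738022 to 34742715) had 14.3 and 5.99 FPKM in OE-H4.V leaves and 12 and 9.56 FPKM in OE-H4.Vs, against 41.8 and 34.1 FPKM in OE-H4. Its log2 fold change was -1.91 in OE-H4.V (adjusted p = 0.114) and -1.72 in OE-H4.Vs (adjusted p = 0.121), both against OE-H4 (limma, Benjamini-Hochberg). In the other direction, Os04g0293100 (chromosome 4, 12836598 to 12837213) had 13.3 and 16.9 FPKM in OE-H4.V leaves and 11.7 and 14.9 FPKM in OE-H4.Vs, against 5.83 and 3.39 FPKM in OE-H4, a log2 fold change of 1.54 between OE-H4.V and OE-H4 (adjusted p = 0.0918, limma, Benjamini-Hochberg). For Os09g0471500 (chromosome 9, 17968402 to 17971304) it was OE-H4.V that was low, at 4.35 and 3.18 FPKM, against 26.2 and 9.09 FPKM in OE-H4.Vs and 14.2 and 16.8 FPKM in OE-H4. These are 4 of 6 members, chosen with their values in view, that changed by more than 1.5 on the log2 scale at an unadjusted p under 0.05.

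Most members were expressed in WT seedlings. The median over the members was 8.93 and 9.28 FPKM in the WT seedling libraries without salt and between 7.92 and 10.95 FPKM over all 8 seedling libraries. Of the 208 members, 166 (79.8%) had at least 3 FPKM in both WT seedling libraries, as did 63 of the 83 members at 0 in WT leaves, beside 90.8% of the comparison genes. Both WT leaf libraries were below both WT seedling libraries in 182 members (87.5%), where 45.7% of the comparison genes showed this order, and below all 8 seedling libraries in 157 members (75.5%, beside 31.6%). Low values in WT leaves are what the rule asked for, so these shares describe the members and test nothing. There is only 1 group of WT leaves, and a property of WT leaves and a property of these 2 libraries cannot be told apart. The median of the OE leaf libraries was within 2 times the mean of the WT seedlings, on FPKM + 1, in 124 members (59.6%) and in 5373 of the 7677 comparison genes. Of the rest, 54 members were higher in OE leaves and 30 were higher in WT seedlings.

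**Figure D3:**
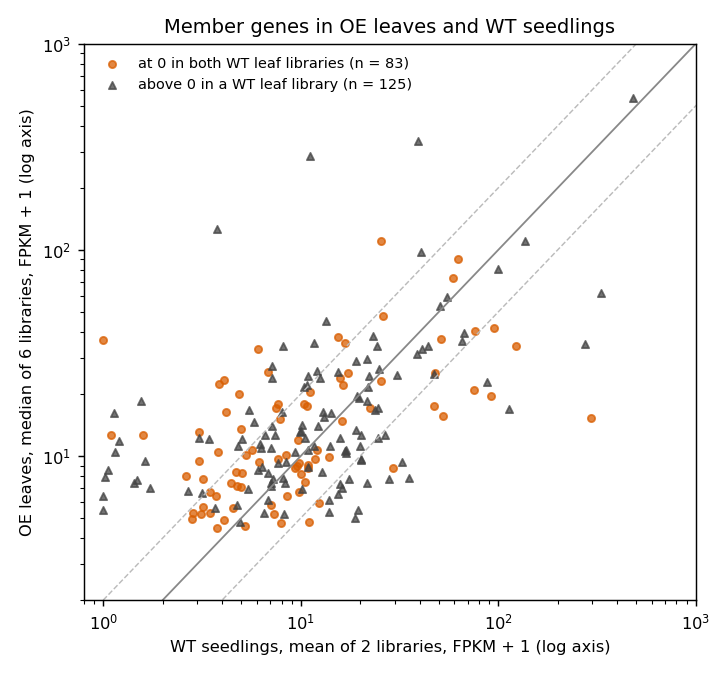
Each point is 1 of the 208 member genes, with the median FPKM + 1 of the 6 OE leaf libraries against the mean FPKM + 1 of the 2 WT seedling libraries, both on log axes. The solid line marks equal values and the dashed lines a 2-fold difference. Between the dashed lines lie 124 genes, above them 54 and below them 30, and genes at 0 in WT leaves (circles) are found in all 3 regions.

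A minority of members set the OE leaves apart from the seedlings. All 6 OE leaf values lay above all 8 seedling values in 46 members (22.1%, beside 15.2% of the comparison genes) and below them in 25 (12%, beside 17.1%). Besides Os06g0156900 and Os09g0362800, Os01g0136900 and Os07g0534350 had a lowest OE leaf value of at least 5 times their highest seedling value, and both shared a transcript with another gene. Os04g0587300 (chromosome 4, 29658700 to 29660577) had 3.53 to 9.86 FPKM in the OE leaf libraries and 1.47 and 1.49 FPKM in WT leaves, but at most 0.826 FPKM in any seedling library. The opposite order was seen in Os01g0878800 (chromosome 1, 38139223 to 38142619), with 4.84 to 8.74 FPKM in the OE leaf libraries against 27.0 and 27.0 FPKM in WT seedlings, while WT leaves had 0.774 and 0.0614 FPKM. It was larger in Os02g0543000, under a shared transcript in leaves, with at most 85.2 FPKM in the OE leaf libraries against 301 and 362 FPKM in WT seedlings. These genes were picked after their values were seen. A value of 0 in at least 1 seedling library was listed for 27 members, and in 7 of them 1 WT seedling library was at 0 while the other had at least 3 FPKM.

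In h4.v KO seedlings few members changed. Of the 198 members that passed the filter in seedlings, 2 rose and 6 fell against WT (limma, adjusted p under 0.05 and absolute log2 fold change over 1.5), or 4.04%, where 6.32% of all 15450 genes tested were called, 1.94% upward and 4.38% downward. The median log2 fold change of the members was 0.19, beside 0.14 over all genes, and median-of-ratios scaling brought these to 0.06 and 0.02. Os02g0585200 (chromosome 2, 22562006 to 22562946) rose to 15.7 and 16.3 FPKM in h4.v KO, against 0.255 and 0.137 FPKM in WT, a log2 change of 3.83 (SE 0.11, adjusted p = 4.00e-05, limma with Benjamini-Hochberg adjustment). Os06g0271500 (chromosome 6, 9130980 to 9135885), at 0 in WT leaves and at 10.2 to 23.8 FPKM in OE leaves, rose to 19.6 and 18.5 FPKM in h4.v KO seedlings, against 3.95 and 3.83 FPKM in WT seedlings (log2 fold change 2.04, adjusted p = 9.53e-05). The libraries of the 2 genotypes were well separated for both genes.

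Os09g0369400 (chromosome 9, 12251875 to 12254061) fell most, to 15.9 and 21.4 FPKM in h4.v KO, against 302 and 289 FPKM in WT, a log2 change of -3.93 (SE 0.15, adjusted p = 8.43e-05, limma with Benjamini-Hochberg adjustment). In leaves this gene was at 10.5 to 31.7 FPKM in the OE lines and at 0 in WT, so its OE leaf level was near that of the h4.v KO seedlings. Os10g0536400 (chromosome 10, 20886407 to 20892109) fell to 11.7 and 16.4 FPKM in h4.v KO, against 113 and 112 FPKM in WT (log2 fold change -2.93, adjusted p = 0.000178). Os07g0569100 (chromosome 7, 22889318 to 22890939, under a shared transcript in a leaf library) fell to 52.6 and 49.1 FPKM in h4.v KO, against 313 and 236 FPKM in WT (log2 fold change -2.40, adjusted p = 0.000968). Os12g0547500 (chromosome 12, 22126680 to 22133291, under shared transcripts in both tissues) had 7.64 and 7.57 FPKM in h4.v KO, against 33.7 and 22.8 FPKM in WT (log2 fold change -1.74, adjusted p = 0.0247). The other 2 members that fell, Os01g0775750 (under shared transcripts in both tissues) and Os01g0864200, had log2 fold changes of -1.55 and -1.53. Os12g0547500 and these 2 lost the call in at least 3 of 4 fits without a library, and 5 members were called without h4.v KO replicate 2. The balance of directions rested on the WT libraries, with 8 members higher and 4 lower without WT replicate 1 and 5 higher and 3 lower without WT replicate 2.

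Salt changed 18 of the 198 members in WT seedlings, 5 upward and 13 downward, or 9.09%, where 11.6% of all genes were called, 3.75% upward and 7.85% downward. The median log2 fold change was -0.04 over the members and 0.09 over all genes. Of the members called, Os04g0650700 rose most, to 53.9 and 61 FPKM in WT with salt, against 3.07 and 2.42 FPKM in WT without it, a log2 change of 3.96 (SE 0.12, adjusted p = 1.61e-05, limma with Benjamini-Hochberg adjustment). It was also the strongest rise with salt in h4.v KO seedlings, described below. Os03g0411800 (chromosome 3, 17008027 to 17011263) rose to 38.1 and 37.8 FPKM in WT with salt, against 12.7 and 9.32 FPKM without it (log2 fold change 1.71, adjusted p = 0.00338). Os03g0606200 had 211 and 592 FPKM in WT with salt, against 106 and 82.1 FPKM without it (log2 fold change 1.91, adjusted p = 0.0228), and it lost the call in 3 of 4 fits without a library. Os12g0553050 (chromosome 12, 22482406 to 22486169) had 17.6 and 16.9 FPKM with salt, against 5.70 and 4.43 FPKM without it, at a log2 fold change of 1.598 that became 1.497, just under the threshold, with median-of-ratios scaling. Under that scaling 3 members rose and 16 fell, whereas 10 rose and 15 fell with a pseudocount of 0.1, and 10 rose and 12 fell without WT replicate 1.

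Among the members that fell with salt in WT seedlings, Os09g0369400 again changed most, to 3.03 and 3.20 FPKM with salt, against 302 and 289 FPKM without it, a log2 change of -6.17 (SE 0.15, adjusted p = 1.03e-05, limma with Benjamini-Hochberg adjustment). Os07g0569100 fell to 22.9 and 21.7 FPKM in WT with salt, against 313 and 236 FPKM without it (log2 fold change -3.55, adjusted p = 0.000141). Os03g0570200 (chromosome 3, 20676986 to 20685924, under shared transcripts in both tissues) was listed at 0 in both WT libraries with salt, against 6.96 and 6.39 FPKM without it (adjusted p = 9.50e-05). Os09g0421166 (chromosome 9, 15208714 to 15211873, under a shared transcript in seedlings) was also listed at 0 in both WT libraries with salt, against 14.4 and 15.1 FPKM without it. Its call was lost in every fit without a library, and with every overlapping transcript counted its log2 fold change was only -0.65.

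In h4.v KO seedlings, salt raised 2 members and lowered 10, or 6.06% of the 198, where 8.54% of all genes were called, 2.83% upward and 5.7% downward. The median log2 fold change was -0.30 over the members and -0.10 over all genes. Os04g0650700 rose to 108 and 106 FPKM in h4.v KO with salt, against 2.40 and 2.22 FPKM in h4.v KO without it (log2 fold change 5.03, SE 0.12, adjusted p = 2.07e-05, limma with Benjamini-Hochberg adjustment). Os04g0578550 (chromosome 4, 29163356 to 29165144) had 11.7 and 6.81 FPKM with salt, against 3.96 and 1.40 FPKM without it, a log2 fold change of 1.53 that was lost in 3 of 4 fits without a library. Os02g0585200, which was higher in h4.v KO than in WT without salt, fell to 1.62 and 1.59 FPKM in h4.v KO with salt, against 15.7 and 16.3 FPKM without it (log2 fold change -2.70, adjusted p = 6.59e-05, limma). Os06g0344201 (chromosome 6, 13780712 to 13781695) fell to 0.432 and 0.486 FPKM with salt, against 8.21 and 8.39 FPKM without it (log2 fold change -2.67, adjusted p = 0.000143). Os08g0172200 (chromosome 8, 4237020 to 4242584) had 0.25 and 0.0989 FPKM with salt, against 11.3 and 11 FPKM without it (log2 fold change -3.38, adjusted p = 0.0367), but it lost the call in every fit without a library. Os08g0282200 (chromosome 8, 11074545 to 11078779) fell to 1.00 and 0 FPKM with salt, against 5.56 and 7.08 FPKM without it (log2 fold change -2.36, adjusted p = 0.00911).

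Under salt the genotypes differed in 4 of the 198 members (2.02%), 3 higher and 1 lower in h4.v KO, where 0.718% of all genes were called, 0.395% higher and 0.324% lower. With a pseudocount of 0.1, 3 of these 4 members were still called, and with a minimum mean of 5 FPKM, 1 was. The median log2 fold change was -0.05 over both the members and all genes. Os06g0271500 was at 14.3 and 13.4 FPKM in h4.v KO with salt, against 2.58 and 2.63 FPKM in WT with salt, a log2 change of 2.04 (SE 0.08, adjusted p = 0.000522, limma with Benjamini-Hochberg adjustment), the same value as without salt. Os01g0978500 (chromosome 1, 43248497 to 43249469) was at 6.34 and 6.43 FPKM in h4.v KO with salt, against 0 and 0.459 FPKM in WT with salt (log2 fold change 2.61, adjusted p = 0.00865). Os03g0570200 was at 4.58 and 3.98 FPKM in h4.v KO with salt and listed at 0 in WT with salt (adjusted p = 0.00312). Os06g0344201 was the 1 lower member, at 0.432 and 0.486 FPKM in h4.v KO with salt, against 6.25 and 8.17 FPKM in WT with salt (log2 fold change -2.48, adjusted p = 0.00182). All 4 calls held in the 4 fits without a library, which gave between 5 and 10 members in all. There were 3 higher and 5 lower, 8 in all, without h4.v KO salt replicate 2, and 7 higher and 3 lower, 10 in all, without WT salt replicate 1, so the majority direction turned with the library left out.

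The effect of salt differed between the genotypes in 9 members by the interaction term, 6 with a positive and 3 with a negative value, or 4.55% of the 198, where 7.11% of all genes were called, 4.26% with a positive and 2.85% with a negative value. Over all genes 658 values were positive and 440 negative, which became 797 and 326 with median-of-ratios scaling, while the counts of members were again 6 and 3. The median value was -0.18 over the members and -0.16 over all genes, and -0.002 and 0.02 with that scaling. The genes fell into several patterns by their library values. In Os09g0369400, Os07g0569100, Os10g0536400 and Os12g0547500, WT without salt stood above the 3 other seedling groups. In Os02g0585200 and Os12g0208900 (chromosome 12, 5674410 to 5676438), h4.v KO without salt stood above the others. Os12g0208900 was at 11.8 and 10.6 FPKM there, against 6.98 and 7.25 FPKM in WT with salt, the next group. In Os06g0344201, h4.v KO with salt was lowest, and in Os01g0978500 and Os03g0570200, WT with salt was lowest. Between 9 and 15 members were called when a library was left out, and the split moved with it. It was 7 positive and 7 negative without h4.v KO salt replicate 2 (14 in all), 6 and 9 without WT replicate 1 (15 in all), 5 and 6 without WT replicate 2, and 10 and 4 without WT salt replicate 1 (14 in all).

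**Figure D4:**
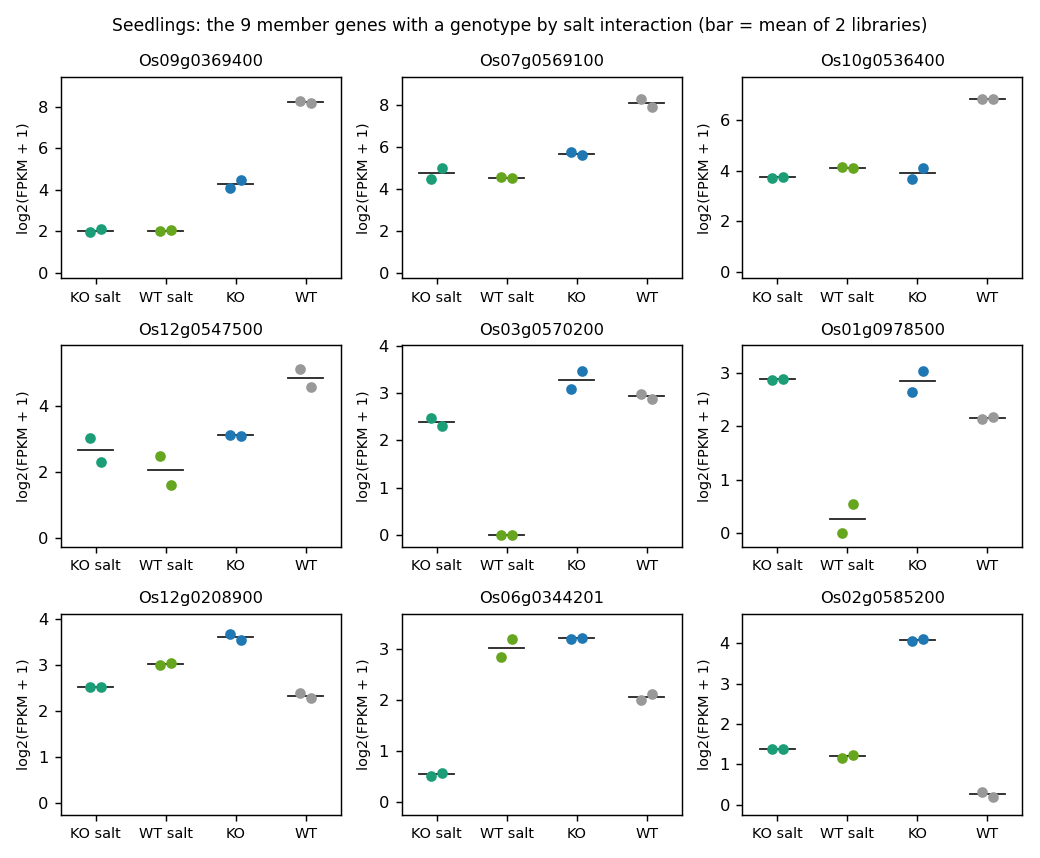
log2(FPKM + 1) in seedlings for the 9 member genes with a genotype by salt interaction, 1 panel per gene, with 1 point per library and a bar at the mean of 2 libraries for h4.v KO with salt, WT with salt, h4.v KO and WT. WT without salt is above the other groups in Os09g0369400, at 302 and 289 FPKM, and h4.v KO without salt is above them in Os02g0585200, at 15.7 and 16.3 FPKM.

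The members were spread unevenly over the genome. On chromosome 5 there were 4 members among 649 comparison genes (0.616%). Chromosome 9 held 23 among 438 (5.25%), chromosome 12 held 18 among 375 (4.80%) and chromosome 11 held 13 among 299 (4.35%). These shares include genes inside another gene or under shared transcripts. On chromosome 11, 5 members lay between 20 and 21 Mb, and only 1 of them was free of such sharing. Of the 378 windows of 1 Mb that hold a comparison gene, 119 had a member and 28 had 3 or more. These 28 windows contained 102 members (49.0%) and 9.30% of the comparison genes, and 16 windows still had 3 or more members after genes with shared transcripts were left out. On chromosome 2, 26 of the 28 members lay between 11 and 23 Mb, where they made up 11.1% of 235 comparison genes, against 0.272% of the 734 genes in the rest of the chromosome. This stretch was chosen after the positions were seen, and only 6 of its members were at 0 in WT leaves. Its counts also include genes with shared transcripts. Between 20 and 21 Mb it held 5 members, and only 1 of these was free of such sharing. Os02g0550800 and Os02g0550850 overlap each other there, and neither met the rule with every overlapping transcript counted.

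**Figure D5:**
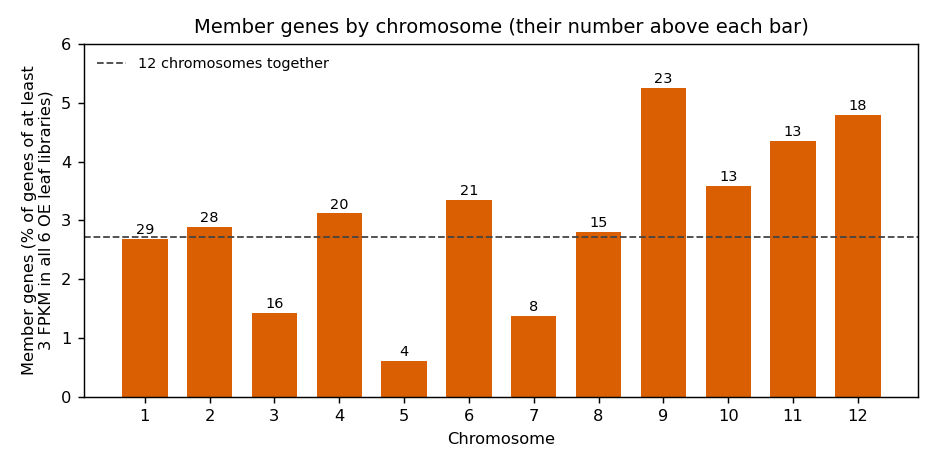
Member genes as a percentage of the genes with at least 3 FPKM in all 6 OE leaf libraries, by chromosome, with the number of members above each bar and the percentage over the 12 chromosomes as a dashed line. Chromosome 5 is lowest with 4 members (0.616%) and chromosome 9 highest with 23 (5.25%). Genes inside another gene or under shared transcripts are included.

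Members were also next to each other more often than other genes were next to a member. With genes under shared transcripts left out, 43 of 169 members (25.4%) had a member as the next comparison gene on either side, against 275 of 6772 other genes (4.06%). This is a description of positions, and neighbouring genes are not independent of each other. There were 17 runs of 2 or more adjacent members. The longest, of 7 members on chromosome 4 from 12252529 to 13155441, ran from Os04g0284600 to Os04g0297800 with no other comparison gene between them apart from genes under shared transcripts. Of these 7, 5 were listed at 0 in both WT leaf libraries, also with every overlapping transcript counted, and the higher WT value of the other 2 was 2.47 and 4.03 FPKM. Os04g0297800 (chromosome 4, 13154099 to 13155441), for example, had 51.8 and 32.8 FPKM in OE-H4.V leaves, 33.6 and 35.2 FPKM in OE-H4 and 28.9 and 25.9 FPKM in OE-H4.Vs leaves, and 118 and 127 FPKM in WT seedlings. Its neighbour Os04g0295000 (chromosome 4, 12953499 to 12954724) was at 7.93 to 10.3 FPKM in the OE leaf libraries and at 9.44 and 8.11 FPKM in WT seedlings. All 7 were expressed in WT seedlings, with means of 3.98 to 122 FPKM.

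A run of 4 members lay on chromosome 9 from 16029442 to 16084120, from Os09g0436000 to Os09g0436700. Os09g0436700 (chromosome 9, 16078813 to 16084120) was at 35.8 and 31.6 FPKM in OE-H4.V leaves, 34.2 and 31.8 FPKM in OE-H4 and 35.8 and 32.0 FPKM in OE-H4.Vs leaves, against 9.23 and 9.26 FPKM in WT leaves. Of its 3 companions, 2 were at 0 in both WT leaf libraries. Runs of 3 lay on chromosome 12 from 5020950 to 5050440 and on chromosome 3 from 17008027 to 17054293. The run on chromosome 3 includes Os03g0411800, which salt raised in WT seedlings. What the members of a run share beyond position and these values was not tested. The genes of a run were named for their place in it, after their values were seen.

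At the edges of the rule the members graded into other genes. The members nearest to the fold limit were Os09g0558200, Os02g0139100 and Os06g0160400, with 2.01, 2.02 and 2.05 times the higher WT leaf value, and the genes just outside it were Os02g0573400, Os07g0573900 and Os03g0430000, the last of them at 22.3 FPKM in its lowest OE library and 11.2 FPKM in the higher WT library. Os01g0774200, Os04g0578550 and Os11g0466300 were nearest above the limit of 3 FPKM, and Os09g0344700, Os02g0740500 and Os03g0629800 fell just short of it, with lowest OE values of 2.98, 2.98 and 2.95 FPKM. The ratio was between 2 and 3 times in 54 members and at least 10 times in 29. The number of genes that meet the rule rested most on WT leaf replicate 2, without which it was 317, as leaving out a library can only add genes.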

How the data were processed

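The 16 deposited tables hold 1 library each. Per the labels and the study's methods, the authors trimmed paired reads with Trimmomatic, aligned them with HISAT2 to IRGSP1.0 and computed FPKM values with Cufflinks 2.2.1 for each library separately, so the FPKM are not scaled between libraries beyond their totals and transcripts differ between tables. Read counts were not used here, and depth was taken only in relative terms from Cufflinks' confidence intervals, which cover counting error. No column belonged to another series.

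The FPKM of a gene in a library was summed over the transcripts lying by at least 50% in its span, each weighted by the share of the span it covered. Of 29771 identifiers, 3 with 2 spans were left out. The members, the comparisons and the lists were chosen with earlier results of these data known. Tests used limma 3.58.1 (R 4.3.3) on log2(FPKM + 1), with 1 mean per group, the 8 libraries of a tissue in 1 fit, a trended prior, Benjamini-Hochberg adjustment over all genes tested and a minimum mean of 1 FPKM, so a fold change understates that of low genes. The fold threshold follows the methods of the study. Tables were handled with Python 3.11.15, pandas 2.3.3 and NumPy 2.4.6, and figures drawn with matplotlib 3.10.9. Tested on simulated data, the fit called 161 of 200 changed genes among 12159 for OE-H4.V against WT leaves, with 5 unchanged genes called. For h4.v KO against WT seedlings it called 163 of 200 among 15450, with 6 unchanged genes called. The changed genes had a median log2 fold change of 2.992 in leaves and 2.99 in seedlings, well above the fold threshold. How many changes nearer to that threshold the fit would call was not tested.

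Genes are named by a rule: the 12 members with the highest median over the OE leaf libraries, the 8 with the highest lowest OE value among those at 0 in WT leaves, up to 4 called members per direction and comparison with the largest fold change, the 3 nearest to each threshold on either side, and the gene at the position of H4.V. For h4.v KO against WT seedlings and for the interaction, every called member is named, beyond the limit of 4. Others are marked as chosen after their values were seen. The RefSeq table used for names matched 1 identifier, so gene lists, tissue markers and promoter motifs were not analysed here. Alternatives were other thresholds, pseudocounts, filters, scaling, transcript assignment, the replicate number as a block and leaving out each library. Counting every overlapping transcript was added after seeing the data.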

Additional observations from a re-analysis of the deposited data

Results flagged for a closer look

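In 9 members the change with salt differed between h4.v KO and WT seedlings by the interaction term, that is, the log2 fold change with salt in h4.v KO minus that in WT (limma, Benjamini-Hochberg adjusted p between 0.000241 and 0.0353, 2 libraries per group). The value was positive in Os09g0369400 (3.92), Os07g0569100 (2.61), Os10g0536400 (2.54), Os12g0547500 (2.35), Os03g0570200 (2.05) and Os01g0978500 (1.91). It was negative in Os12g0208900 (-1.77), Os06g0344201 (-3.64) and Os02g0585200 (-3.65). Os03g0570200 was listed at 0 in both WT libraries with salt, and Os01g0978500 was at 0 and 0.459 FPKM in them. Both values therefore depend on the pseudocount. With a pseudocount of 0.1, 8 of the 9 members were called again. Of the 9, 8 were called in all 8 fits without a library, and Os12g0547500 was called in 2 of them.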

How the results depend on the processing

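The number of members was 354 with a fold of 1.5, 339 with a lowest OE value of 1 FPKM and 84 with one of 10 FPKM, and 216 to 317 when a leaf library was left out, the highest without WT leaf replicate 2. Other ways of assigning transcripts kept the count within 1.5 times, but not all of the same genes. With at least 80% of a transcript required in the gene there were 170 genes, of which 160 were among the 208 members. A plain sum of transcripts gave 200 genes, 183 of them members, and every overlapping transcript gave 268 genes, 196 of them members. Without adjustment of p, 5 members passed between OE-H4.V and OE-H4, 3 between OE-H4.Vs and OE-H4 and 1 between OE-H4.V and OE-H4.Vs. At an absolute log2 fold change over 1, 15 members were called for h4.v KO against WT, 35 for salt in WT, 35 for salt in h4.v KO and 18 for the interaction. With a minimum mean of 5 FPKM, 1 was called between the genotypes under salt and 5 for the interaction. Leaving out 1 library gave 0 to 1 members between OE-H4.V and OE-H4, 0 to 1 between OE-H4.Vs and OE-H4 and 0 to 3 between OE-H4.V and OE-H4.Vs. In seedlings it gave 5 to 12 members for h4.v KO against WT, 5 to 10 between the genotypes under salt and 9 to 15 for the interaction. The cause of these shifts was not tested. No called seedling change of a member turned its direction with median-of-ratios scaling or with every overlapping transcript counted, whereas in leaves counting every overlapping transcript gave 6 members a negative log2 fold change in each OE genotype against WT (Os01g0662300, Os03g0606200, Os03g0644200, Os09g0385300, Os10g0421800 and Os12g0623900).

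The replicate number as a block gave 8 members called for h4.v KO against WT, 18 and 11 for salt in WT and in h4.v KO, 4 between the genotypes under salt and 10 for the interaction, and 0 for each pair of OE lines. Same-numbered libraries correlated at -0.0271 to 0.0893 in their deviations from the group means. A batch that touches few genes or does not follow the numbers would not show in these values, and a shared batch was not tested.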
